A study of Mus musculus with 8 samples.

Results

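The TRIM family of ubiquitin ligases was followed in mouse pre-B cells across a microRNA vector and withdrawal of a growth factor. Members were the genes whose name on the array was Trim with a number and at most 1 further letter, which gave 66 of the 34770 gene names on the array. They were carried by 101 of 55681 probes, and each gene was represented by the probe with the highest mean signal over the 8 arrays. All 66 names matched a RefSeq gene, 61 of them through the accession of the probe and 5 through the symbol. Of these genes, 16 lie on chromosome 7 and 10 on chromosome 11. A gene entered the tests where 1 or more groups had its probe well above background on each of their arrays, which held for 42 of the 66 members and for 20644 genes in all.

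RNA was hybridised to 8 single-colour arrays, 2 for each of 4 groups: miR-125b cells without IL-7, miR-125b cells with IL-7, control cells without IL-7 and control cells with IL-7. All cells were of the mouse pre-B line 1676, whose genotype is SLP-65-/- LAT-/-, so every group, the controls included, lacks both of these signalling adaptors. The cells carried a retroviral vector for the human microRNA hsa-miR-125b-1 or a control vector, were selected with 1 µg/ml puromycin, and were kept in an excess of interleukin-7 (IL-7), given as supernatant of a secreting line, or for 24 h without it, a step meant to start pre-B cell differentiation. Each repetition used its own independently made clones, so a group of n = 2 holds 2 clones. The microRNA came from the vector, so the comparison of vectors concerns forced expression.

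A typical TRIM protein carries a RING domain that recruits an E2 enzyme and passes ubiquitin to a substrate, 1 or more B-boxes, and a coiled coil, followed by a variable C-terminal part that picks the target. Some members restrict viruses or tune the sensors of viral nucleic acid, some silence chromatin in the nucleus, and some serve microtubules or muscle fibres. Many members related to primate TRIM5 are known to be interferon-induced. A microRNA pairs through its seed with transcripts and lowers their level or translation. IL-7 is the growth factor of early B cells, and pre-B cells that lose it leave the cycle and move on in differentiation.

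The family's largest change, that of Trim12a, was in a chromosome 7 cluster, so the promoter windows of its genes were read first. They are RefSeq windows of build GRCm38.p6, from 250 bases before to 50 after a gene's start, and are printed in the direction of transcription. Capitals mark 2 copies of GAAA with any 2 bases between them, or the reverse complement, letters like those of an interferon-stimulated response element (ISRE-like). The windows are Trim5 at chr7:104288057-104288356 (minus strand), Trim12a at chr7:104315446-104315745 (minus strand), Trim12c at chr7:104353300-104353599 (minus strand) and Trim34a at chr7:104244207-104244506 (plus strand).
Trim5: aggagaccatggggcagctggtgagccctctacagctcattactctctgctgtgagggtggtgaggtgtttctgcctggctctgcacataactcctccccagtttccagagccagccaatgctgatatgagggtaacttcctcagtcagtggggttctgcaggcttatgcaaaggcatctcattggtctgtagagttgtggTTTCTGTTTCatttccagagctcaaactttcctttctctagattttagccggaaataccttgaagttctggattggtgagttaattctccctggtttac
Trim12a: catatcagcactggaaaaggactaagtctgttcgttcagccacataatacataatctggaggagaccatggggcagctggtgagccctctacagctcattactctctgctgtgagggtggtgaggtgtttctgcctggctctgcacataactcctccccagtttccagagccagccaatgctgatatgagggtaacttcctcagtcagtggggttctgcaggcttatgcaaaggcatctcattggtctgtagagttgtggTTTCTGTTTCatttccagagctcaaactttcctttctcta
Trim12c: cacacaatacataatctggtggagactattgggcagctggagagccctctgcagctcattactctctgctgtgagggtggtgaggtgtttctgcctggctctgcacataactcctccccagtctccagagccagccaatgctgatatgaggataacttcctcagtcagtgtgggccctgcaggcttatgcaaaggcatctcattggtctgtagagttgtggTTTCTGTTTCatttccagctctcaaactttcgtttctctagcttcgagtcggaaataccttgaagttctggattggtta
Trim34a: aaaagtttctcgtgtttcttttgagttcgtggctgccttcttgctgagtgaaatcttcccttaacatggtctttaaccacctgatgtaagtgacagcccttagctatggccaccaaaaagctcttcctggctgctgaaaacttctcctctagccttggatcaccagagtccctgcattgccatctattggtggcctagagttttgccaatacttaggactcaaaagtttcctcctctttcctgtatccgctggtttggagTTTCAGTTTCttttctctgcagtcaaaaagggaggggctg
The Trim12a and Trim5 windows held 1 identical run of 241 bases, shifted by 59, so every base they had in common positions was the same. Because of that shift the same 10 letters began 49 bases before the annotated start of Trim5 and 11 bases after that of Trim12a. The longest run that Trim12c shared with Trim12a was 71 bases, and a Trim30a window shared a run of 118 bases with that of Trim30d. The letters were found in 10 of the 65 windows of 51 members (15.4%), and in 1131 of all 32851 windows (3.44%). Windows that share such runs are not separate finds, so the higher share is not read as a trait of the family. The 9 genes with a match were Trim2, Trim5, Trim12a, Trim12c, Trim21, Trim26, Trim30a, Trim30d and Trim34a, of which 6 belong to the 10 genes of the cluster. Matches of the FOXO letters GTAAACA lay in windows of 2 members, Trim63 and Trim67 (3.08% of member windows, 3.65% of all). The GAS letters, TTC and GAA with any 3 bases between them, searched like the others on both strands, lay in windows of 6 members, Trim15, Trim30c, Trim31, Trim38, Trim45 and Trim46 (10.8% of member windows, 8.3% of all). A match of letters is a description of the window only.

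The probes of the cluster are shown for Trim12a, whose values changed most, since related genes could share a probe. Positions are those of the array file in mm9, chr7:111448499-111448558 and chr7:111452759-111452818, both on the minus strand.
Trim12a probe used in the fit: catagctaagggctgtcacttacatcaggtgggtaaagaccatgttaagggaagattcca
Trim12a second probe: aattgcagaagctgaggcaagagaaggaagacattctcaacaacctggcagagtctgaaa
Over the 120 pairs of the cluster's 16 probes the longest shared run was 9 bases. Probes lie at different places in their genes, so this cannot show whether a probe also detects a related gene. The Trim12a probe used in the fit matched the Trim34a window, on the opposite strand, at 58 of 60 bases, while the best match of the second Trim12a probe to any window of the cluster was 29 of 60. A second Trim34a probe matched the Trim34b window at 60 of 60 bases on the same strand, from base 220 of the window. The match thus runs across the annotated start of Trim34b, which follows base 250, and lies partly before it. Whether Trim34b RNA carries the whole match was not tested, so the probe's signal is not given to 1 of the 2 genes. The Trim34a probe used in the fit matched no window of the cluster at more than 29 bases. Windows cover only the bases near a gene's start, so matches elsewhere in a transcript were not looked for.

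A probe's level is given below as log2 of its signal relative to the 75th percentile of its array, which was 515 to 620.5 on the arrays without IL-7 and 275.8 to 314 on those with IL-7. Between 47.7% and 54.8% of probes were well above background on an array, 0 spots were saturated, and replicates correlated across genes at r = 0.9941 to 0.9959. The 4 arrays without IL-7 shared a slide and a scan, and the 4 with IL-7 shared another, so the effects of withdrawal and of slide or scan cannot be told apart. Within a slide the miR-125b arrays lay in columns 3 or 4 and the control arrays in columns 1 or 2. All 12 markers of pre-B cells were well above background on every array, and their summed linear level was 1760 to 1830 without IL-7 and 2300 to 2420 with IL-7. The brightest genes weigh most in such a sum, and the markers did not move together. Mean levels of Rag1, Rag2, Pax5 and Ebf1 were higher without IL-7 in both cell types, and those of the other pre-B markers were lower. Rag1 stood at 4.48 in miR-125b cells and 4.27 in control cells without IL-7, against 2.33 and 1.40 with it. The sum of 6 T and NK cell markers was 6.38 to 6.63 without IL-7 and 4.12 to 5.01 with it. Among these, Cd8a, the CD8 alpha chain, was at least 94.9-fold higher without IL-7 in miR-125b cells and at least 84-fold higher in control cells, while Cd3g, Thy1 and Ncr1 were above background nowhere. Cd3e, part of the T cell receptor complex and measured on all 8 arrays, fell by 1.57 in miR-125b cells and fell by 1.46 in control cells, and Cd4 fell by 0.38 in control cells and was at -0.13 in miR-125b cells. Sums of 4 plasma cell markers were 42.9 to 47.5 without IL-7 and 26.8 to 35.7 with it, and those of 6 myeloid markers 194 to 227 and 187 to 225. The plasma cell markers disagreed, since Irf4 and Prdm1 were higher without IL-7 in both cell types and Sdc1 and Xbp1 lower. Irf4 had means of 4.94 in miR-125b cells and 4.93 in control cells without IL-7, against 3.58 and 3.41 with it. Those of Sdc1 were -1.64 and -1.94, against 0.04 and -0.29. The part of these markers in the results on withdrawal was not tested. In bulk RNA, fewer cells of a type and less RNA per cell cannot be told apart.

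Pre-B cells carried signal for most of the family in every group. Both arrays had the probe well above background for 41 of 66 members in miR-125b cells without IL-7 (62.1%, against 56.9% of all genes) and for 39 with IL-7 (59.1%, against 53.6%). In control cells it was so for 41 members without IL-7 (62.1%, against 52.5% of all genes) and for 39 with IL-7 (59.1%, against 53.3%). In all 4 groups 38 members were detected (57.6%, against 49% of all genes). Only Trim5, Trim12a, Trim13 and Trim55 were detected in some groups and not in others, as the plot of levels by group shows, and 24 members in no group.

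**Figure D1:**
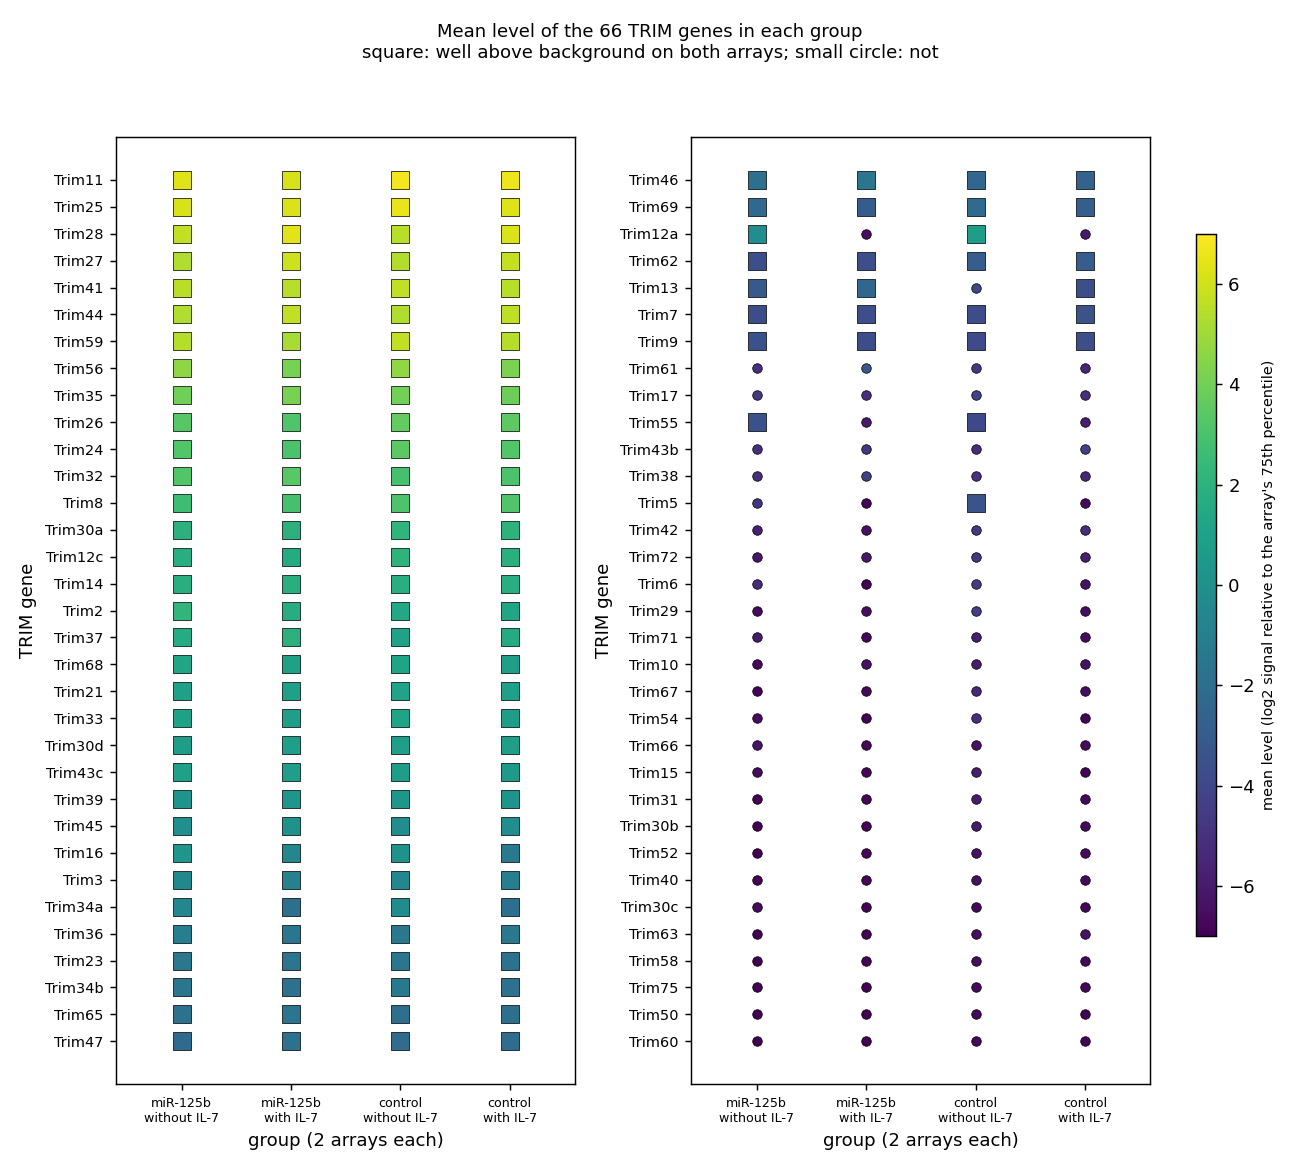
Mean level of each of the 66 TRIM genes (rows) in the 4 groups (columns, 2 arrays each), as log2 signal relative to the array's 75th percentile (colour). Squares mark groups in which the probe was well above background on both arrays (41, 39, 41 and 39 genes), and small circles all others. Rows follow the mean level for display only, since levels of different probes are not comparable.

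The 24 members without a detected group included the erythroid genes Trim10 and Trim58, the muscle genes Trim54, Trim63 (MuRF1, which marks muscle proteins for breakdown) and Trim72 (MG53, a membrane repair protein), and Trim66, the testis member of the TIF1 group. Trim71 (LIN41), a stem cell protein whose transcript is a known let-7 and miR-125 target, was also among them. The others were Trim6, Trim15, Trim17, Trim29, Trim30b, Trim30c, Trim31, Trim38, Trim40, Trim42, Trim43b, Trim50, Trim52, Trim60, Trim61, Trim67 and Trim75. Of the 24, 17 were dim on each of the 8 arrays. Trim61, picked after its values were seen, differed between the arrays of a pair. It was at -5.08 and -1.27 in miR-125b cells with IL-7 and -6.07 and -3.37 in control cells without IL-7. It was well above background on 1 array of each of these pairs. Within a group each clone had 1 array, so clone and array cannot be told apart. Another Trim61 probe was dim on all 8 arrays. Its log2 difference between miR-125b and control cells with IL-7 was -0.936, where the probe shown gave 2.395.

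On IL-7 withdrawal more tested TRIM genes rose than fell, as the plot of withdrawal changes shows. In miR-125b cells 11 of 42 rose and 4 fell (35.7% called, where 53.8% of all tested genes were called, 18.7% higher and 35.1% lower), and in control cells 12 rose and 4 fell (38.1% called, where 54.7% of all were, 19.7% higher and 35% lower). The median log2 change of the 42 was 0.09 in miR-125b cells and 0.15 in control cells, where the medians of all genes were -0.15 and -0.14. Of the members, 9 rose and 3 fell in both cell types, and 0 were called in opposite directions. The like share of all genes was not counted, so these counts are not read as a trait of the family. The 2 comparisons use separate arrays, but 1 shared estimate of spread and the same 2 slides. A member was called at an adjusted p under 0.05 (limma, Benjamini-Hochberg over all 20644 genes). The split between rises and falls depends on the scaling: with arrays scaled to their median, 5 rose and 10 fell in miR-125b cells and 4 rose and 10 fell in control cells, and with quantile normalization 14 rose and 1 fell, and 18 rose and 4 fell. The counts in miR-125b cells were 8 without miR-125b with IL-7 replicate 2 and 9 without either miR-125b array lacking IL-7, and those in control cells were 9 without control with IL-7 replicate 1 and 8 without either control array lacking IL-7.

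**Figure D2:**
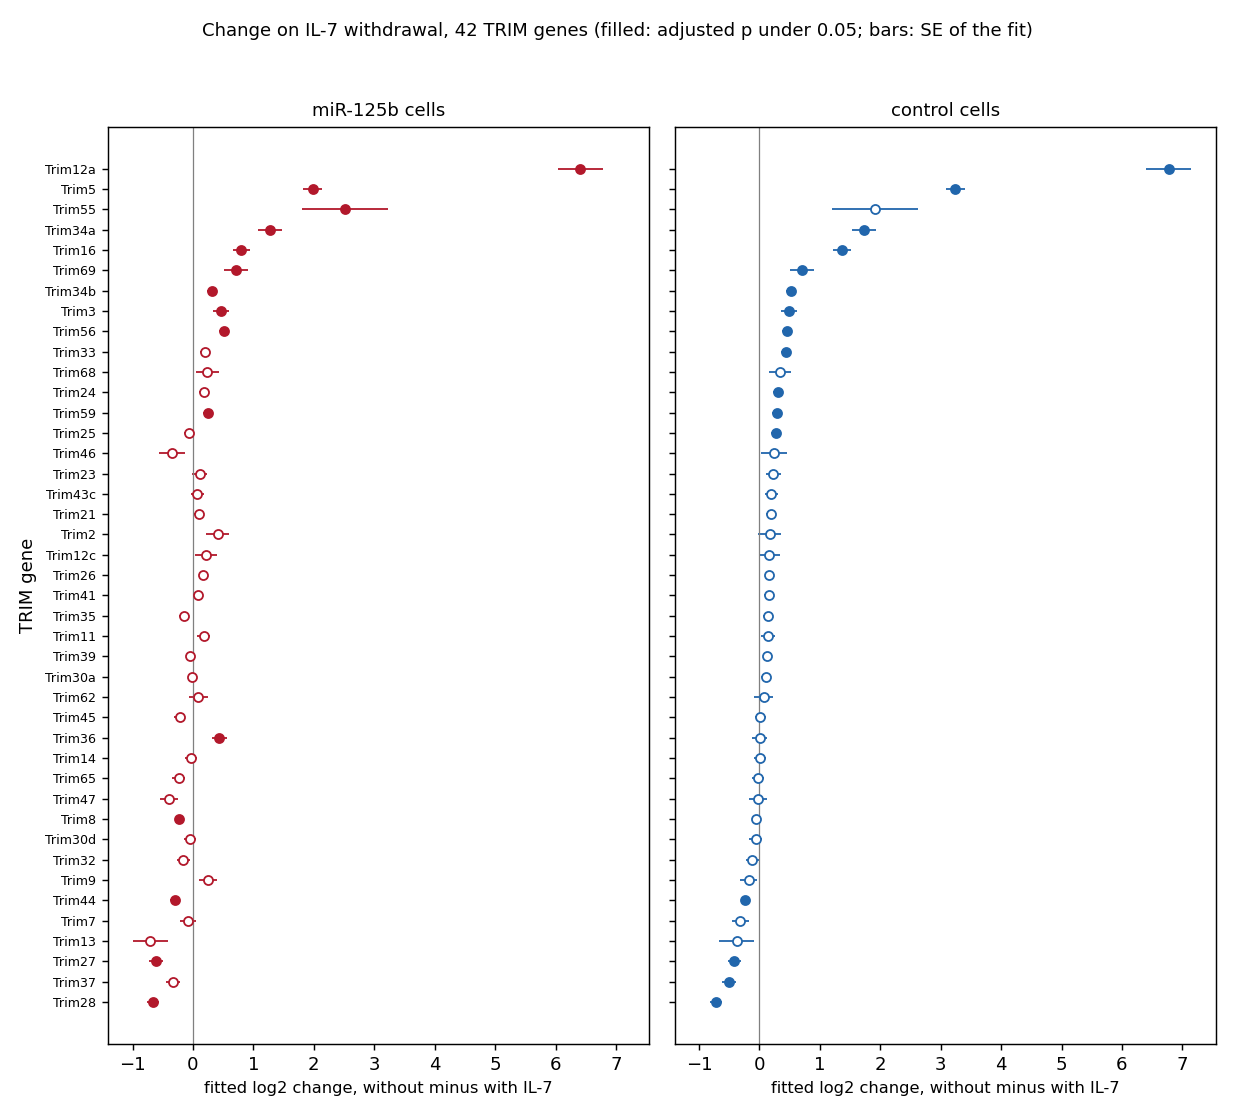
Fitted log2 change on IL-7 withdrawal (x axis, without minus with IL-7) of the 42 tested TRIM genes (rows) in miR-125b cells (left) and control cells (right), with bars for the SE of the fit and filled points where the adjusted p was under 0.05. Trim12a stands apart from the other genes in both panels, at 6.41 and 6.77, and Trim28 has the lowest point in control cells at -0.72.

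On withdrawal 18.7% of all tested genes were called higher in miR-125b cells and 19.7% in control cells. In the Trim5 and Trim30 cluster 4 of 7 tested genes were called higher without IL-7 in both cell types, and 0 lower. Trim12a and Trim5 passed the filter on dim probes only through groups without IL-7, where they are high, so this count gives no support of its own; the same holds for Trim55 in the counts over the family. The 4 were Trim12a, Trim5, Trim34a and Trim34b, which are neighbours in the order Trim6, Trim34a, Trim5, Trim12a, Trim34b, Trim12c, Trim30b, Trim30c, Trim30a, Trim30d. Trim12a, a mouse relative of the primate retrovirus restriction factor TRIM5, was measured without IL-7 and dim with it. Its level was 0.06 and -0.29 in miR-125b cells without IL-7, against -6.44 and -6.60 with IL-7. Its level in control cells was 0.91 and 0.57 without IL-7, against -6.60 and -5.46 with IL-7. The groups lie far apart, and none of the arrays with IL-7 measured the probe. Trim12a was at least 23.9-fold higher without IL-7 in miR-125b cells (adjusted p = 0.000921) and at least 39.9-fold higher in control cells (adjusted p = 0.000637). This bound takes as the dim level whichever is higher on the array, the probe's own value or the dimmest signal that counted as well above background. Under normexp background correction the fitted change shrank to 2.29 and 2.91, and it was called under all 16 alternatives in each cell type. The second Trim12a probe was likewise well above background on 4 of 4 arrays without IL-7 and 0 of 4 with it, with fitted changes of 4.13 and 3.93. Among all genes, 668 (3.24%) in miR-125b cells and 492 (2.38%) in control cells rose in this way, dim on both arrays with IL-7 and measured on both without; by the bound Trim12a was number 2 and number 3 of them.

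Trim5, the mouse gene that shares its name with the primate restriction factor, stood at -4.89 and -4.79 in miR-125b cells without IL-7 and at -6.95 and -6.69 with IL-7. Control clones had it at -3.23 and -3.62 without IL-7 and at -6.73 and -6.60 with IL-7. Only the control arrays without IL-7 were well above background. Trim5 was therefore at least 2.23-fold higher without IL-7 in control cells (adjusted p = 0.000522), and no fold is given for miR-125b cells, where both groups were dim. These calls rest on the background correction: with normexp the change was 0.12 in control cells (adjusted p = 0.32) and -0.34 in miR-125b cells (adjusted p = 0.0133).

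Trim34a, whose human counterpart TRIM34 is interferon-induced, was at -0.52 and -0.66 in miR-125b cells without IL-7 and at -1.63 and -2.10 with IL-7. The control level was -0.19 and -0.30 without IL-7 and at -2.18 and -1.77 with IL-7. The ranges did not overlap in either cell type. That was so for 80.4% of all tested genes in miR-125b cells and 81.4% in control cells. Trim34a rose by 1.28 (SE 0.20, adjusted p = 0.00415) in miR-125b cells and by 1.73 (SE 0.20, adjusted p = 0.00182) in control cells, and was called under all 17 alternatives in each. Its second probe, the one that matched the Trim34b window, changed by 0.45 and 0.90. Trim34b rose by 0.31 (SE 0.09, adjusted p = 0.0259) and 0.52 (SE 0.09, adjusted p = 0.00446), but with normexp by 0.03 and 0.15, neither of them called.

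Of the other 6 genes of the cluster, Trim12c, Trim30a and Trim30d were tested and not called, and Trim6, Trim30b and Trim30c were too dim to be tested. Trim12c, the paralogue of Trim12a whose window carries the same 10 letters, was at 1.72 and 1.82 in miR-125b cells without IL-7 and at 1.5 and 1.62 with IL-7. Among control cells the values were 2.01 and 2.10 without IL-7 and at 2.16 and 1.62 with IL-7, where the ranges overlap. Its log2 change was 0.21 (SE 0.18) and 0.16 (SE 0.18). Trim30a, which in mouse restrains signalling from Toll-like receptors, was within 1.88 and 2.15 on all 8 arrays, with changes of -0.01 and 0.11 (SE 0.08 each). Trim30d changed by -0.05 and -0.06 (SE 0.10 each). Trim30b and Trim30c were dim throughout, and Trim6, whose human counterpart activates the kinase IKKε, was well above background on 1, the first of control cells without IL-7 at -3.31. Of the 6 cluster genes with the ISRE-like letters, 3 were thus called in both cell types, Trim5, Trim12a and Trim34a. The other 3, Trim12c, Trim30a and Trim30d, were called in neither. Of all tested genes, 18.7% were called higher in miR-125b cells and 19.7% in control cells. Trim5 and Trim12a passed the filter only through groups without IL-7, and Trim5 was dim in both groups of miR-125b cells. A link between the letters and the calls was not tested.

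**Figure D3:**
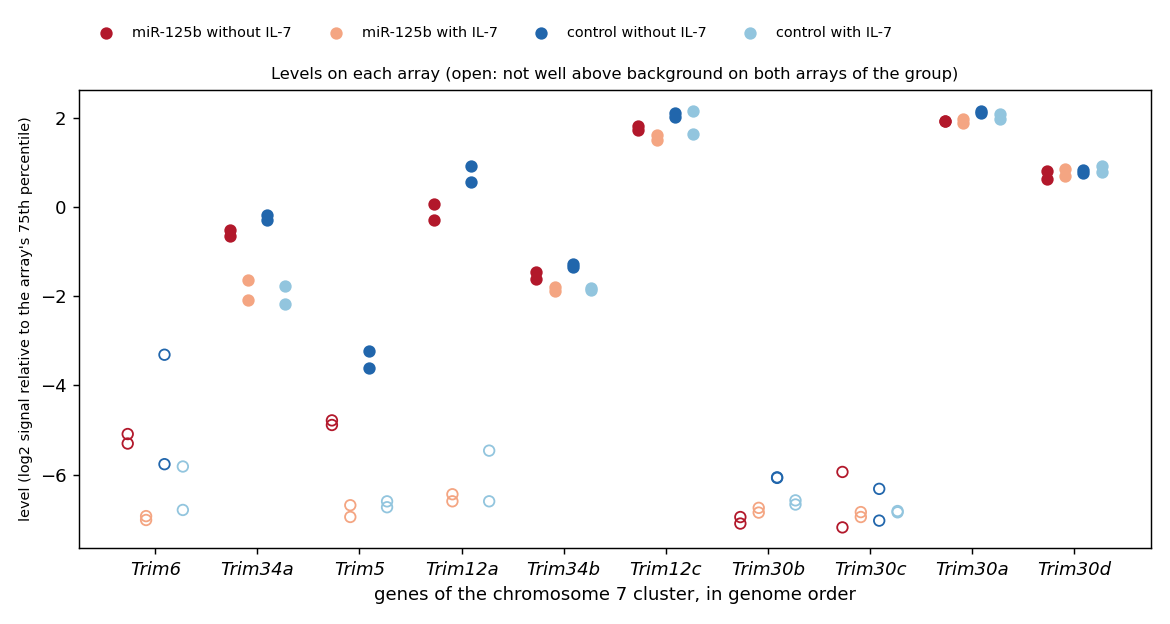
Level on each array (points; log2 signal relative to the array's 75th percentile) of the 10 genes of the chromosome 7 cluster, in genome order, with open points where a probe was not well above background on both arrays of the group. The points of Trim12a lie between -0.29 and 0.91 without IL-7 and between -6.60 and -5.46 with IL-7, whereas those of Trim30a and Trim30d overlap or nearly meet in all groups.

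The nuclear corepressors of the TIF1 group moved in both directions. Trim28 (KAP1), the partner of KRAB zinc finger proteins that silences endogenous retroviruses, was at 5.65 and 5.76 in miR-125b cells without IL-7 and at 6.25 and 6.48 with IL-7. In control cells it was at 5.48 and 5.50 without IL-7 and at 6.25 and 6.17 with IL-7. Every array without IL-7 was below every array with it. Within a cell type such separation held for 80.4% of all tested genes in miR-125b cells and 81.4% in control cells. Trim28 fell by 0.66 (SE 0.10, adjusted p = 0.00387) in miR-125b cells and by 0.72 (SE 0.10, adjusted p = 0.00269) in control cells. In control cells it was called under all 17 alternatives, while in miR-125b cells the call was lost with quantile normalization (-0.23, adjusted p = 0.0682) and with the authors' deposited values. Trim33, which acts on SMAD4, rose in control cells by 0.43 (SE 0.07, adjusted p = 0.00476), but by 0.11 (adjusted p = 0.495) with median scaling, and was at 0.19 (SE 0.07) in miR-125b cells. Trim24, a co-regulator of nuclear receptors, rose by 0.31 (SE 0.08, adjusted p = 0.022) in control cells, where median scaling gave -0.02. It was at 0.17 (SE 0.08) in miR-125b cells.

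Of the 10 partners of Trim28 in KRAB silencing on the array, all were tested. In miR-125b cells 5 fell and 0 rose (median -0.41), and in control cells 7 fell and 1 rose (median -0.36). Of all tested genes, 35.1% fell and 18.7% rose in miR-125b cells (median -0.15), and 35% fell and 19.7% rose in control cells (median -0.14). Hdac2, a histone deacetylase, fell by 0.61 and 0.58, and Chd3, a remodeller of the same complex, fell by 0.56 and 0.82. Cbx1 and Cbx5, the HP1 proteins that bind methylated histone H3, fell by 0.41 and 0.50 in miR-125b cells and by 0.40 and 0.49 in control cells. Atf7ip, which protects the methyltransferase SETDB1, was the gene that rose, by 0.44 in control cells.

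Trim16, a member that lacks a RING domain and helps clear damaged lysosomes, rose in both cell types. It was at 0.33 and 0.22 in miR-125b cells without IL-7 and at -0.35 and -0.70 with IL-7. Its level in control cells was 0.08 on both arrays without IL-7 and at -1.15 and -1.41 with IL-7. The ranges did not overlap, which also held for 80.4% of all tested genes in miR-125b cells and 81.4% in control cells. Trim16 rose by 0.80 (SE 0.15, adjusted p = 0.00657) and by 1.36 (SE 0.15, adjusted p = 0.00165), and was called under all 17 alternatives in each cell type; its second probe changed by 0.58 and 1.20. Trim69, first described in mouse testis, rose by 0.71 and 0.70 (SE 0.20 each, adjusted p = 0.0268 and 0.027), but with normexp its changes were -0.03 and 0.04.

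Trim56, which in human and mouse cells promotes STING signalling, rose by 0.51 (SE 0.08, adjusted p = 0.00441) and 0.46 (SE 0.08, adjusted p = 0.00565). With median scaling neither was called (0.29, adjusted p = 0.0921, and 0.13, adjusted p = 0.395), and its second probe changed by 0.21 and 0.08. Trim3, an NHL-repeat member, rose by 0.47 and 0.48 (SE 0.13 each, adjusted p = 0.0289 and 0.0254) but not with normexp (0.18 and 0.20). Its brighter probe, left out because its spots were marked not uniform on at least 1 array, changed by -0.04 and 0.59. Trim59, a membrane-anchored member, rose by 0.25 and 0.30 (SE 0.08 each, adjusted p = 0.0441 and 0.0251); with median scaling the changes were 0.03 and -0.03, and the calls were lost under 11 and 6 of 17 alternatives. Trim25, the ligase that activates the RNA sensor RIG-I, was called in control cells (0.28, SE 0.08, adjusted p = 0.0283), where median scaling gave -0.05. In miR-125b cells the 2 probes of Trim25 differed, at -0.06 and 0.63.

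Trim36, a microtubule-binding member, rose in miR-125b cells (0.44, SE 0.13, adjusted p = 0.0292) but not with normexp (0.09), and was at 0.01 in control cells. Trim55 (MuRF2), a muscle protein of the sarcomere, was at -3.48 and -3.60 in miR-125b cells without IL-7, against -5.47 and -6.64 with IL-7. Control clones had it at -3.80 and -4.05 without IL-7, against -6.89 and -4.77 with IL-7. It was well above background on the arrays without IL-7 only, at least 2.23-fold higher in miR-125b cells (adjusted p = 0.0287). With normexp that change was 0.03 (adjusted p = 0.861). Of 5 stromal markers Col1a2 was well above background on 7 arrays and the other 4 on none. Of the 5 muscle markers Mylpf was well above background on 7 of 8 arrays, Ttn on 1 and the other 3 on none; the part of these in the result was not tested.

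Among the genes that fell, Trim27, a transcriptional repressor also known as RFP, was at 5.25 and 5.38 in miR-125b cells without IL-7 and at 5.89 and 5.97 with IL-7. The control level was 5.34 and 5.43 without IL-7 and at 5.93 and 5.67 with IL-7. It fell by 0.62 (SE 0.11, adjusted p = 0.00654) in miR-125b cells, under all 17 alternatives. In control cells it fell by 0.41 (SE 0.11, adjusted p = 0.0241), a call lost under 8 of 17 alternatives, among them quantile normalization (-0.10). Trim37, a ligase of the centrosome, fell in control cells by 0.51 (SE 0.12, adjusted p = 0.0134), where leaving out control with IL-7 replicate 1 or either control array lacking IL-7 ended the call (adjusted p = 0.0643, 0.0603 and 0.0567). In miR-125b cells it was at -0.33 (SE 0.12, adjusted p = 0.0567). Trim44, a member with no RING domain, fell by 0.31 and 0.24 (SE 0.07 each, adjusted p = 0.0152 and 0.0353), but quantile normalization gave 0.04 and 0.07. Trim8, known for the degradation of SOCS1, fell in miR-125b cells by 0.24 (SE 0.06, adjusted p = 0.0245), a call kept under 6 of 17 alternatives.

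Whether withdrawal acted differently in the 2 cell types was tested directly as an interaction. The limma test called 0 of the 42 members and 0 of 20644 genes (0%); 4 members and 1214 genes had an unadjusted p under 0.05. The 4 were Trim5 (-1.26, SE 0.23), Trim16 (-0.56, SE 0.21), Trim25 (-0.34, SE 0.11) and Trim35 (-0.30, SE 0.12), with adjusted p of 0.494 to 0.843. The largest of these, that of Trim5, rests on dim arrays. A member called in 1 cell type only, such as Trim33 or Trim36, is thus not shown to differ between them.

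The vector was compared within each slide. In cells without IL-7, 4 of 42 members were lower with the miR-125b vector and 0 higher (9.52%, where 6.43% of all genes were called, 2.84% higher and 3.59% lower). With IL-7 limma called 0 of 42 (0%, where 2.39% of all genes were called, 1.18% higher and 1.21% lower). In that limma test 15 of the 42 members and 4222 of the 20644 genes had an unadjusted p under 0.05. The average over both conditions, 4 arrays against 4, called 14 members, 6 higher and 8 lower in miR-125b cells (33.3%, where 15.8% of all genes were called, 7.71% higher and 8.14% lower), and their median over all 42 was 0.01, against -0.02 for all genes. Arrays count for much here. Of the cells lacking IL-7, leaving out control replicate 1 or either miR-125b clone gave 0 members in that condition, leaving out control replicate 2 gave 1, and leaving out a control clone kept in IL-7 gave 2. The average gave 3 without control replicate 1 lacking IL-7, 4 without its replicate 2 or either miR-125b clone lacking IL-7, and 5 without control replicate 2 kept in IL-7. Median scaling gave 7 higher and 2 lower in the average.

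**Figure D4:**
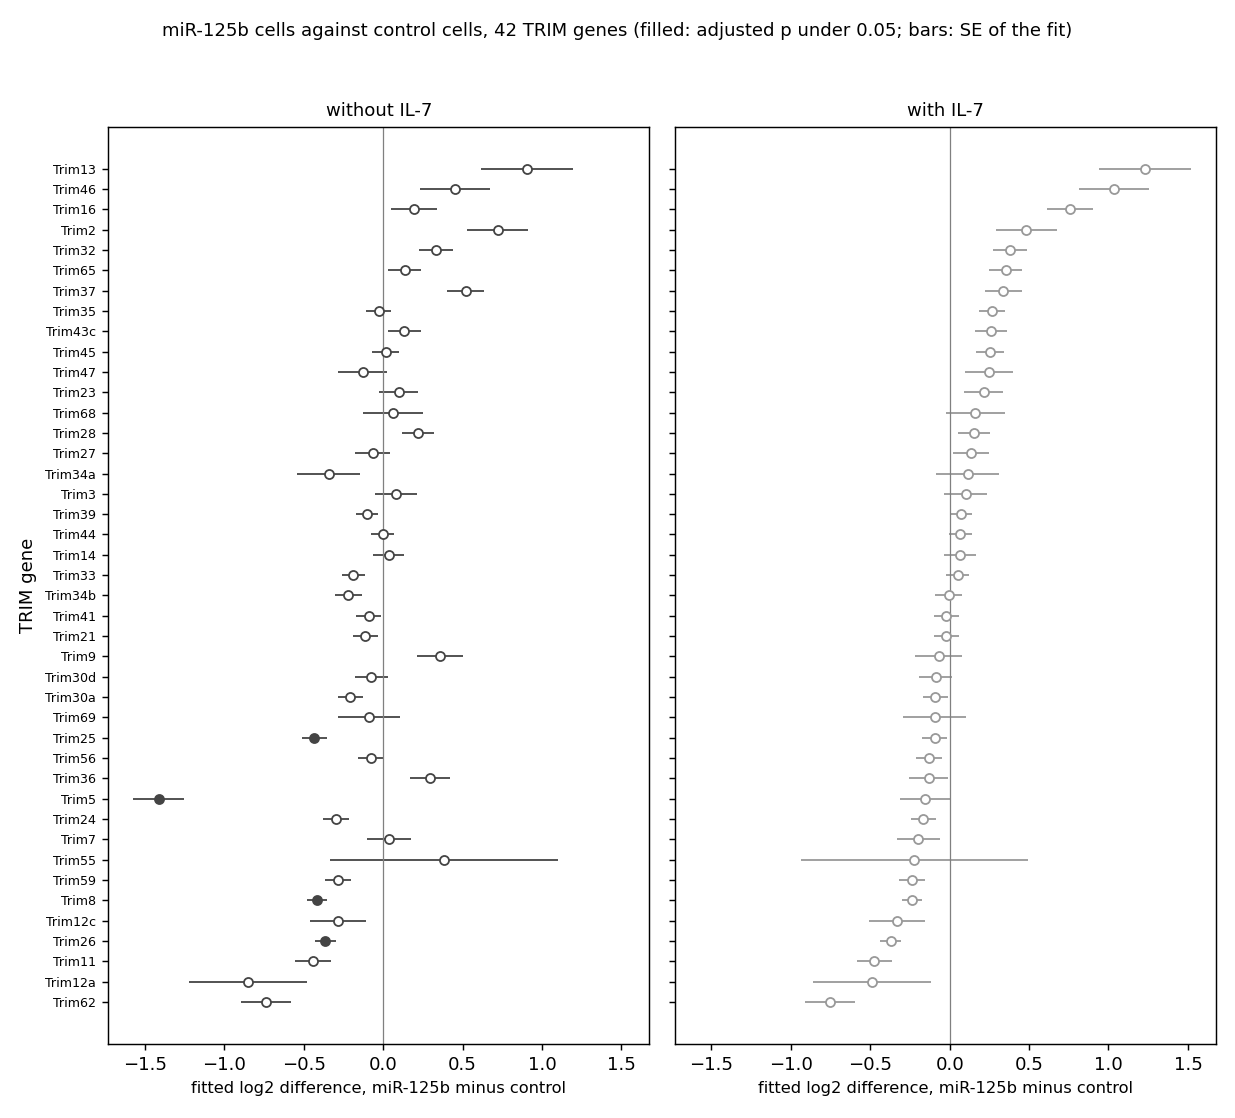
Fitted log2 difference between miR-125b and control cells (x axis, miR-125b minus control) of the 42 tested TRIM genes (rows) without IL-7 (left) and with IL-7 (right), with bars for the SE of the fit and filled points where the adjusted p was under 0.05. The 4 filled points are Trim5, Trim25, Trim8 and Trim26 without IL-7, and none is filled with IL-7.

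Of the 13 tested members of the list of other innate-immunity TRIMs, 4 were lower in the average (Trim8, Trim11, Trim25 and Trim26). In that list 0 were higher and the rest were not called, with a median of -0.06. Of all tested genes, 8.14% were lower and 7.71% higher in the average. The list was chosen with earlier results of these data known, so its count gives no support of its own. Trim62 (DEAR1), a regulator of epithelial polarity, was at -3.74 and -3.49 in miR-125b cells and -2.99 and -2.77 in control cells without IL-7. The levels with IL-7 were -3.68 and -3.73 in miR-125b cells and -2.78 and -3.13 in control cells. The 4 miR-125b arrays lay below the 4 control arrays. How many of all genes were separated in this way was not counted. Its averaged difference was -0.75 (SE 0.11, adjusted p = 0.0125) and was called under all 16 alternatives, -0.39 with normexp. Taken alone, the conditions gave -0.74 without IL-7 (adjusted p = 0.0511) and -0.75 with it (adjusted p = 0.0709).

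Trim26, which in human and mouse cells degrades nuclear IRF3, was at 3.32 and 3.27 in miR-125b cells and 3.66 and 3.65 in control cells without IL-7. In IL-7 the values were 3.17 and 3.09 in miR-125b cells and 3.50 on both arrays of control cells. The groups did not overlap in either condition. Between the vectors that was so for 61.1% of all tested genes without IL-7 and 49.3% with it. It was lower by -0.37 in the average (SE 0.05, adjusted p = 0.00996) and by -0.36 without IL-7 (SE 0.07, adjusted p = 0.0395). The average lost its call only with median scaling (-0.23, adjusted p = 0.133), whereas the call without IL-7 was lost under 12 of 17 alternatives, the removal of any 1 array among them (adjusted p of 0.0551 to 0.2).

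Trim8 was at 2.66 and 2.64 in miR-125b cells and 3.07 on both arrays of control cells without IL-7. Cells with IL-7 had 2.89 on both arrays of miR-125b cells and 3.11 and 3.15 in control cells. It was lower by -0.33 in the average (SE 0.05, adjusted p = 0.0113) and by -0.42 without IL-7 (SE 0.06, adjusted p = 0.0273). Without any 1 of the 4 arrays lacking IL-7 the second call was lost (adjusted p of 0.118 to 0.155), and median scaling ended both calls.

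Trim25 was at 6.10 and 6.15 in miR-125b cells and 6.53 and 6.59 in control cells without IL-7. The levels with IL-7 were 6.12 and 6.26 in miR-125b cells and 6.30 and 6.27 in control cells, nearly touching. It was lower by -0.43 without IL-7 (SE 0.08, adjusted p = 0.0376), by -0.19 on its second probe, and by -0.26 in the average (SE 0.06, adjusted p = 0.0312). Median scaling gave -0.24 and -0.12, neither called, and both calls were lost under 10 alternatives each, most of them the removal of 1 array. Trim5 was well above background without IL-7 in control cells only and was 2.66-fold lower in miR-125b cells (adjusted p = 0.014). This is the fitted fold and not a lower bound, since the probe's own dim values lay above the dimmest signal that counted as well above background. It holds for the processed signal only: with normexp the log2 difference was -0.61 (adjusted p = 0.00546). That call was lost without control replicate 1 (adjusted p = 0.0792) or either miR-125b array (adjusted p = 0.0971 and 0.0803) of those lacking IL-7. Its averaged difference of -0.78 (SE 0.11, adjusted p = 0.0122) includes the dim arrays with IL-7.

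Another 3 genes were lower in the average alone. Trim11, linked to the removal of misfolded proteins, was at 6.41 and 6.27 in miR-125b cells and 6.78 on both arrays of control cells without IL-7. In IL-7 the values were 6.31 and 6.02 in miR-125b cells and 6.63 and 6.64 in control cells. Its difference was -0.46 (SE 0.08, adjusted p = 0.0187). Trim59 was lower by -0.26 (SE 0.06, adjusted p = 0.0351) and Trim24 by -0.23 (SE 0.06, adjusted p = 0.0478), close to the threshold. Under the alternatives the call of Trim11 was lost in 7 of 16, of Trim59 in 10 and of Trim24 in 11, median scaling being among them for all. Leaving out single arrays accounts for most, with adjusted p up to 0.0695 for Trim11.

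Higher in miR-125b cells were Trim13, Trim46, Trim2, Trim16, Trim37 and Trim32, all in the average alone. Trim13 (RFP2), a membrane protein of the endoplasmic reticulum, was at -3.38 and -2.88 in miR-125b cells and -4.15 and -3.92 in control cells without IL-7. Cells with IL-7 had -2.77 and -2.08 in miR-125b cells and -3.47 and -3.85 in control cells. It was higher by 1.07 (SE 0.20, adjusted p = 0.0236), 0.90 on its second probe and 0.30 with normexp; 1 of the 8 arrays, a control array without IL-7, was not well above background. Trim46, which bundles microtubules in axons, was at -1.75 and -2.07 in miR-125b cells and -2.23 and -2.49 in control cells without IL-7. The levels with IL-7 were -1.86 and -1.27 in miR-125b cells and -2.62 and -2.58 in control cells. The difference was 0.74 (SE 0.16, adjusted p = 0.0303), and 0.37 with normexp.

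Trim2 and Trim32 are NHL-repeat ligases, Trim2 known for neurofilament turnover and Trim32 for muscle. Trim2 was at 1.95 and 2.33 in miR-125b cells and 1.35 and 1.49 in control cells without IL-7. In IL-7 the values were 1.97 and 1.5 in miR-125b cells and 1.22 and 1.29 in control cells. It was higher by 0.60 (SE 0.14, adjusted p = 0.0376), and by 0.59 on its second probe. Trim32 was higher by 0.36 (SE 0.08, adjusted p = 0.0327), Trim37 by 0.43 (SE 0.08, adjusted p = 0.024) and Trim16 by 0.48 (SE 0.10, adjusted p = 0.0337). These 6 calls were lost under 6 to 9 of the 15 or 16 alternatives. The removal of single arrays made up most of them, with adjusted p up to 0.0836 for Trim13, 0.094 for Trim46, 0.119 for Trim2, 0.107 for Trim32, 0.0835 for Trim37 and 0.105 for Trim16. The plot of single arrays shows the spread behind each gene.

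**Figure D5:**
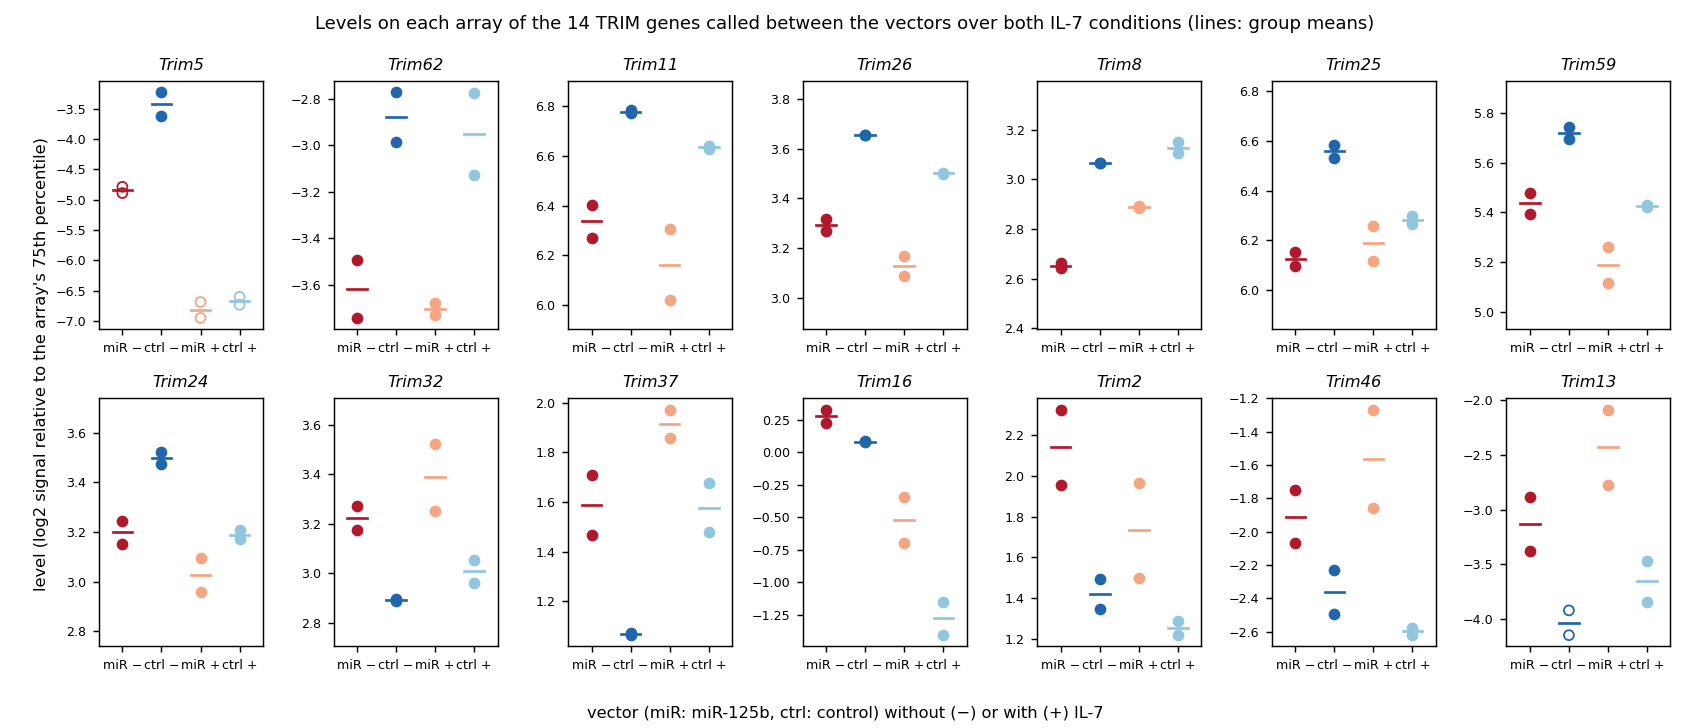
Level on each array (points) and group mean (lines), as log2 signal relative to the array's 75th percentile, of the 14 TRIM genes called between miR-125b and control cells in the average of both IL-7 conditions; open points mark groups not well above background on both arrays. In Trim62 the 4 miR-125b points lie between -3.74 and -3.49 and the 4 control points between -3.13 and -2.77.

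The microRNA made by the vector has this mature form in mouse (RefSeq, GRCm38.p6, from Mir125b-1 on chromosome 9 and Mir125b-2 on chromosome 16), shown with its seed, bases 2 to 8, in capitals because the family's transcripts would pair through it.
mmu-miR-125b-5p: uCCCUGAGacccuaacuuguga
Its match, CTCAGGG, lay in 1 of the 101 TRIM probes (0.99%), the Trim71 probe used here, and in 245 of 55681 probes (0.44%). A probe covers only 60 bases of a transcript, so this says nothing of sites elsewhere in it. Both probes of Trim71 were dim on all 8 arrays, so its response could not be measured, and no probe of the microRNA itself was used here.

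Of the 42 members, 26 were called in at least 1 comparison, 7 of them both on withdrawal and between the vectors, and 16 in none. The like count over all genes was not made, so this one is not read as a trait of the family. On withdrawal alone, 53.8% of all tested genes were called in miR-125b cells and 54.7% in control cells. The 16 were Trim7, Trim9, Trim12c, Trim14, Trim21, Trim23, Trim30a, Trim30d, Trim35, Trim39, Trim41, Trim43c, Trim45, Trim47, Trim65 and Trim68. Over the 6 comparisons their fitted values stayed within 0.43 of 0 on the log2 scale, which holds for the probes used in the fit. A second Trim65 probe, well above background on all 8 arrays, changed by -0.76 on withdrawal in miR-125b cells, where the fitted probe gave -0.24. Between the vectors without IL-7 these 2 probes differed in sign, at -0.54 and 0.14. Trim21, the cytosolic antibody receptor whose window carries the ISRE-like letters, changed on withdrawal by 0.10 (SE 0.08) in miR-125b cells and 0.19 (SE 0.08, adjusted p = 0.0862) in control cells.

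By family group, the COS-box members had 4 of 6 genes tested, with Trim36 and Trim46 as above the only calls, and neither erythroid member was tested. Genes that work with TRIM ligases were counted too, and their counts on withdrawal are to be read against the 35.1% of all tested genes that fell and 18.7% that rose in miR-125b cells, and the 35% and 19.7% in control cells. Of 11 tested E1 and E2 enzymes, 5 fell and 1 rose on withdrawal in miR-125b cells, and likewise in control cells. Ube2k fell by 0.63 and 0.60 and Uba1, the main E1, by 0.60 and 0.63, whereas Ube2w, which starts chains at protein N termini, rose by 0.39 and 0.52. Between the vectors 0 of 11 were called in the average, with a median of 0.00. Of 14 genes of nucleic acid sensing, 4 fell in miR-125b cells and 3 in control cells on withdrawal, and 0 rose; the RNA sensor gene Ifih1 fell by 1.43 and 0.83. These counts are no larger a share than that of all genes that fell. Between the vectors 3 were lower in the average, Irf7 by -0.93 (SE 0.15), Traf6 by -0.78 (SE 0.07) and Tab3 by -0.26 (SE 0.06). In that average 8.14% of all tested genes were lower and 7.71% higher, the shares to set beside the vector counts of both lists.

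Interferon response genes were called in both directions. Of 12 tested, 4 rose and 2 fell on withdrawal in miR-125b cells (median 0.01), and 4 rose and 1 fell in control cells (median 0.15). Shares of all tested genes were 18.7% higher and 35.1% lower in miR-125b cells, and 19.7% higher and 35% lower in control cells. Irf9 rose by 0.71 and 0.86, while Bst2, which tethers budding virus, fell by 1.18 and 1.29. Between the vectors 3 were higher and 3 lower in the average, where 7.71% of all genes were higher and 8.14% lower, Ifitm3 by 0.81 (SE 0.11) and Oas1a by -1.17 (SE 0.23) among them. Of TRIM genes under other names 3 of 7 were tested. Cmya5 rose by 2.39 and 2.33 (SE 0.17 each) on withdrawal, Pml, the core of nuclear bodies, fell by 0.25 and 0.31 (SE 0.07 each), and Cmya5 was lower by -0.50 (SE 0.12) in miR-125b cells in the average.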

How the data were processed

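Total RNA of 8 samples, 100 ng each, was labelled with Cy3 and hybridised to single-colour Agilent arrays. The deposited scanner files hold spot intensity on a linear scale and flags (0 or 1) for spots well above background, saturated or not uniform, made by the authors with Agilent Feature Extraction 10.7.3.1 (with IL-7) and 10.7.1.1 (without IL-7) per the file headers. For every sample the submitters' processing notes give version 10.7.1.1. The deposited value table, also an intensity on a linear scale, had a median of 21.7 in each column and correlated with the scanner values at r of 0.9993 or more on the log2 scale; its scaling is not given in the sources used here. Gene names came from the newer probe list of the 2 used; 15.2% of spots had another name in the older one.

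Of 62976 spots, 3671 control spots and 58 probes marked not uniform were left out. Processed signals were divided by the array's 75th percentile and taken to log2. The 20644 genes with a probe well above background on each array of a group were fitted with limma 3.58.1 in R 4.3.3 (with the data.table package, 1.17.8) as 4 group means over 8 arrays, moderated by eBayes, with calls where p after Benjamini-Hochberg adjustment was under 0.05. Every SE and adjusted p, also under an alternative, is from such a limma fit with n = 2 arrays a group, except where 1 array was left out. In those fits the group of that array holds n = 1, and the spread comes from the other groups. The number of arrays limits the precision. The script was tested on simulated data.

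Members and lists were chosen with earlier results of these data known. Genes named are those called between the vectors, the 10 members with the largest called withdrawal change in each cell type, members fixed by role (the TIF1 and NHL groups, the chromosome 7 cluster, Trim13, Trim21, Trim25, Trim27, Trim37 and Trim59), and members whose probes disagree; others were picked after their values were seen. Alternatives were normexp background correction (offset 50), quantile and median scaling, the deposited table, other filters and probe choices, only the 4 arrays compared, the replicate number as a block, and each array left out. Withdrawal, slide and scan cannot be told apart, so no fit with slide as a block was possible.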

Additional observations from a re-analysis of the deposited data

How the results depend on the processing

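The direction of withdrawal changes depended on scaling. With median scaling, which moved the median of all genes to -0.47 in control cells and -0.37 in miR-125b cells, the control changes of Trim24, Trim25 and Trim59 became -0.018, -0.049 and -0.032. In miR-125b and control cells Trim44 became 0.035 and 0.065 with quantile normalization and 0.04 and 0.07 with the deposited table. With normexp Trim5 and Trim69 became -0.341 and -0.034 in miR-125b cells. The cause was not tested. Members called on withdrawal in miR-125b cells numbered 23 with normexp and 7 with no filter on dim probes. In the vector average they numbered 9 with median scaling and 5 with no filter. With IL-7 they numbered 1 with normexp and 4 with only probes above background on all 8 arrays. Without IL-7 they numbered 10 with normexp, 2 with median scaling, 7 with that stricter filter and 0 with only the 4 arrays compared, a fit with fewer samples.

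Leaving out 1 array gave 8 to 16 members on withdrawal in miR-125b cells, 8 to 16 in control cells, 3 to 10 in the average, 0 to 3 without IL-7, and 0 to 0 with IL-7 and for the difference. Replicate numbers were shared by the groups, but deviations of same-numbered arrays correlated at -0.101 to 0.116, so the numbers were not taken to pair them. The replicate block gave 7 members in the average and 1 without IL-7, 14 and 15 on withdrawal in miR-125b and control cells, and 0 elsewhere. Calls kept in every alternative run were those of Trim12a, Trim16 and Trim34a on withdrawal in both cell types, Trim27 in miR-125b cells, Trim28 in control cells and Trim62 in the average. Dim probes bear on the folds of Trim5, Trim12a and Trim55, whose levels with IL-7 were not well above background.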
